A study of Mus musculus with 10 samples.

Results

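The 4 libraries compared here came from 2 lines of murine embryonic stem cells (mESCs), 2 from H3.3 KO mESCs and 2 from Daxx-/- mESCs, and were chosen by their genotype labels out of 10 libraries in all. The study introduced transgenes into each KO line to ask how gene expression depends on the histone variant H3.3 and on its chaperone DAXX. Every line was sampled by polyA+ RNA-Seq in duplicate. The comparison asked how the KO lines differed from each other, and the same contrast between the lines rescued with a WT transgene, which shares no library with it, served as a second measurement.

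The H3.3 KO line had a mixed 129 x C57BL/6J background and carried no transgene. The Daxx-/- line had a 129/SvEv background and likewise carried no transgene. Daxx-/-;WT cells received a lentiviral, epitope-tagged DAXX, H3.3 KO;WT cells an epitope-tagged WT H3.3, and H3.3 KO;mutant cells the L126A-L130A H3.3 named in the labels, all driven by the EF1 promoter. All cells were grown feeder-free on gelatin in 2i+LIF medium with 3 µM CHIR99021, a GSK3 inhibitor, and 1 µM PD0325901, a MEK inhibitor. No group had intact H3.3 genes and intact Daxx together, and each KO line was obtained from a different laboratory. Genotype, strain, sex chromosomes and line history differed together between the 2 KO lines, and their parts in any difference cannot be told apart.

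H3.3 is the histone H3 variant that is incorporated into chromatin outside DNA replication, and in the mouse H3f3a and H3f3b encode the same protein. HIRA places it mainly at active genes. DAXX, with its partner ATRX, places it at heterochromatin and repeats, and DAXX also recruits co-repressors. In mESCs grown in 2i, DNA methylation is low and many germline genes are held down by other repressors. X-linked multicopy families expressed in the testis and placenta (Rhox, Xlr, Magea) are typical genes that are silenced in most somatic cells.

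The libraries held 15463625 to 21396585 expected counts, and 13201 of 20325 genes had at least 1 CPM in at least 2 libraries and were tested. Values below are CPM, read counts scaled to a common library total with median-of-ratios factors, and DE genes are those with at least a 2-fold change and a p-value under 0.05 in edgeR's quasi-likelihood test after Benjamini-Hochberg adjustment over all genes. The replicates of Daxx-/- were the least alike of the 5 pairs, with a Spearman correlation across genes of 0.965, against 0.982 to 0.993 in the other lines. Between the KO lines the correlation was 0.920 to 0.950. With 2 libraries per line, an exact two-sided permutation test of a single gene cannot go below p = 0.333, so all calls rest on the spread shared over the 5 lines.

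The embryonic stem cell label fitted the marker genes in all 4 libraries. Pou5f1 lay between 916 and 1184 CPM and Nanog between 684 and 966 CPM. The summed level of the 9 listed mESC markers was 3451 and 4182 CPM in Daxx-/- and 4405 and 5133 CPM in H3.3 KO. Of the 4 trophectoderm markers, 2 were at or under 3 counts in every one of these libraries, and the 4 together summed to at most 1.81 CPM. The 5 primitive endoderm markers summed to 6.61 to 18.5 CPM. The 6 fibroblast markers summed to 29.5 and 50.0 CPM in Daxx-/- and to 11.7 and 13.9 CPM in H3.3 KO. Most of that difference was Thy1, while Col1a2, Col3a1 and Postn were at most at 0.328 CPM. The part of other cells in the differences below was not tested.

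The knocked-out genes checked the labels in part. H3f3a was at 492 and 377 CPM in Daxx-/- and at 5.20 and 10.9 CPM in H3.3 KO, a log2 fold change of -5.76 ± 0.39 (SE; adjusted p = 0.000245), and it was at most 5.30 CPM in the 4 transgenic H3.3 libraries. H3f3b was not reduced. It was at 314 and 375 CPM in Daxx-/- and at 508 and 719 CPM in H3.3 KO, so transcripts of the disrupted gene were still counted, and its log2 fold change of 0.83 stayed under 2-fold (adjusted p = 0.0418). Daxx transcripts were no lower in Daxx-/- than in H3.3 KO, and their difference did not pass the test. They were at 82.7 and 71.9 CPM in the libraries labelled Daxx-/- and at 61.8 and 61.4 CPM in H3.3 KO, a log2 fold change of -0.33 ± 0.19 (adjusted p = 0.233). Daxx rose to 207 and 206 CPM with the DAXX transgene. A count over the whole gene cannot show whether part of it was deleted, so for Daxx the check was void. Transcripts of the partner ATRX (Atrx, log2 fold change 0.42, adjusted p = 0.168) and of HIRA (Hira, 0.22, adjusted p = 0.634) did not pass the test.

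The KO lines differed at 1538 genes, 11.7% of those tested. Of these, 765 were higher in H3.3 KO (5.8% of tested genes) and 773 were lower (5.86%). At least a 4-fold difference was seen for 486 of them, 242 higher and 244 lower. Y-linked genes and H2A genes led the genes higher in H3.3 KO, and X-linked multicopy genes and H3f3a led the genes lower in H3.3 KO. The count depended on single libraries: it was 701 without H3.3 KO replicate 2 and 926 without H3.3 KO replicate 1. Fitted on these 4 libraries alone it was 819.

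**Figure D1:**
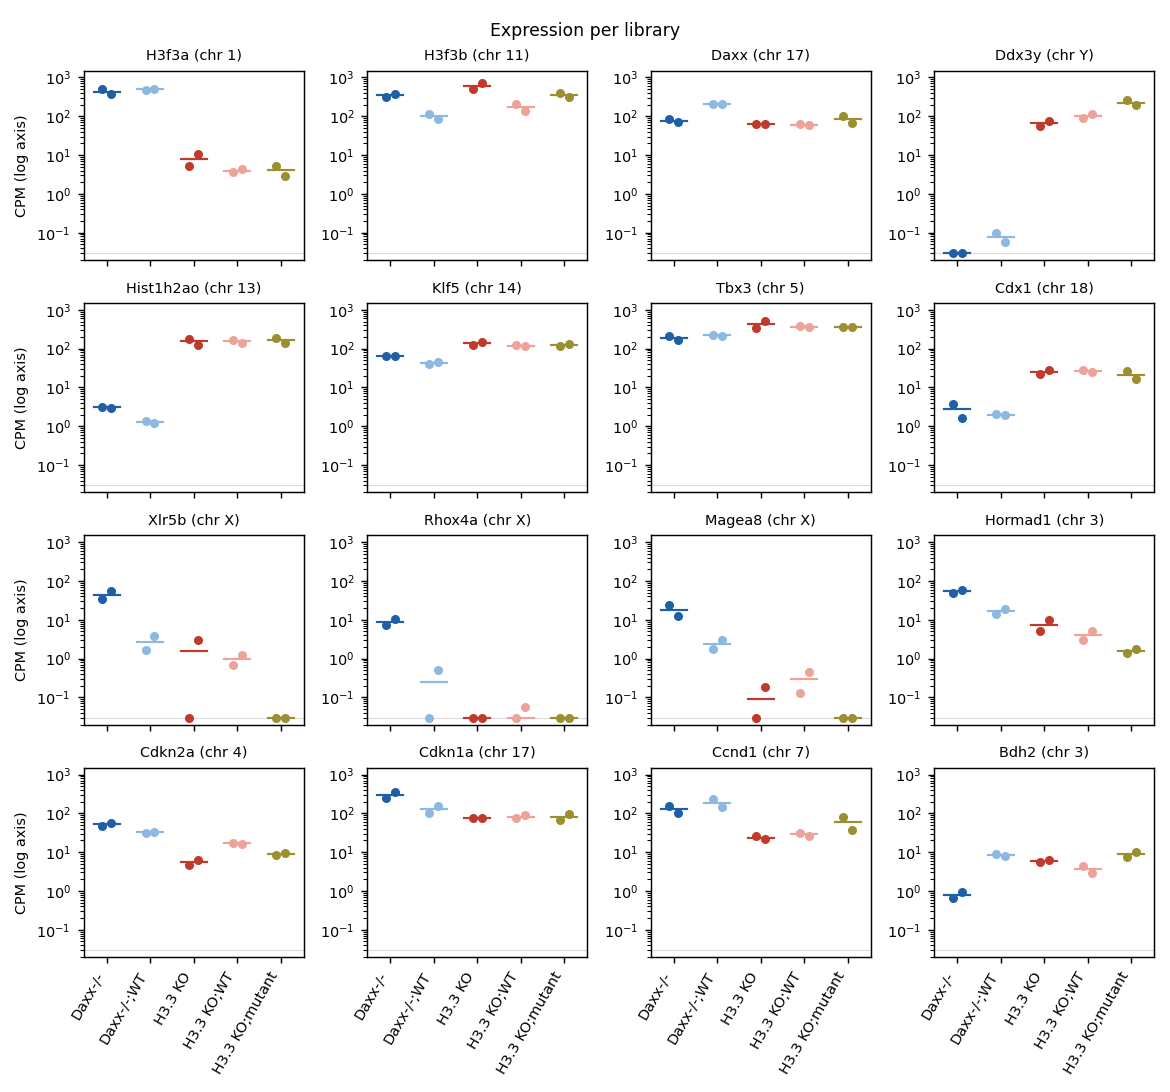
Expression of 16 genes in each of the 10 libraries, in CPM on a log axis. Points are libraries, horizontal bars are the means of the 2 libraries of a line, the chromosome stands in the panel title, and values under 0.03 CPM are drawn at 0.03. H3f3a, Ddx3y and Hist1h2ao split the 6 H3.3 libraries from the 4 Daxx libraries with no overlap, whereas Xlr5b, Rhox4a and Magea8 were highest in the Daxx-/- libraries.

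All Y-linked genes on the list that were tested were DE and higher in H3.3 KO (6 of 6), beside 5.8% of all tested genes. They passed the filter of at least 1 CPM only through the H3.3 libraries. They could thus be called only as higher, and the count gives no support beyond the levels themselves. Ddx3y, an RNA helicase gene, had 0 counts in both Daxx-/- libraries and 57.8 and 76.4 CPM in H3.3 KO, which is at least 406-fold higher when 3 counts per library are taken as the floor (adjusted p = 5.24e-05). Eif2s3y, a translation initiation factor gene, was at 0 in Daxx-/- and at 40.4 and 32.3 CPM in H3.3 KO, at least 219.8-fold higher (adjusted p = 0.000245). Uty, a histone demethylase gene, went from 0.0555 and 0.0547 CPM to 15.3 and 17.1 CPM, at least 97.8-fold (adjusted p = 0.000105). The transcription factor gene Zfy1 went from 0 to 7.24 and 8.37 CPM, at least 47.2-fold (adjusted p = 0.00461). The KO libraries did not overlap for any of the 4 genes, as for 60.2% of all tested genes. Summed over the 8 listed Y-linked genes in the table, the level was at most 0.149 CPM in all 4 Daxx libraries, Daxx-/-;WT included, and 124 to 413 CPM in the 6 H3.3 libraries. Ube1y1 was the exception among the 7 genes placed on the Y chromosome, with 4.05 and 2.63 CPM in Daxx-/- against 53.3 and 50.9 CPM in H3.3 KO. It has a close X-linked relative whose reads could be shared.

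Outside the Y chromosome, the named genes that were highest in H3.3 KO relative to Daxx-/- were of mixed kinds. Hist1h2ao, a replication-dependent H2A gene, was at 3.22 and 2.96 CPM in Daxx-/- and at 181 and 124 CPM in H3.3 KO, a log2 fold change of 5.63 ± 0.28 (adjusted p = 5.24e-05). Hist1h2ah was at 0.777 and 0 CPM against 43.3 and 26.1 CPM (adjusted p = 0.00553), and Hist1h2ad was at 5.44 and 4.10 CPM against 54.2 and 50.0 CPM (adjusted p = 0.000551). These 3 were the DE members among 8 tested clustered H2A genes (37.5%, beside 11.7% of all tested genes), a family looked at after its values were seen. They are near-identical copies, and in polyA+ RNA their division of reads is uncertain. Summed over the 17 H2A genes in the table, the 4 Daxx libraries were at 5.90 to 17.99 CPM and the 6 H3.3 libraries at 209 to 296 CPM, so the ranges of the lines did not overlap.

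Ubd, which encodes the ubiquitin-like protein FAT10, had 0 counts in Daxx-/- and 5.32 and 6.08 CPM in H3.3 KO, at least 34.5-fold (adjusted p = 0.00152). Cadps2, a gene for a vesicle priming factor, was at 1.22 and 0.547 CPM against 25.8 and 34.9 CPM, a log2 fold change of 5.09 ± 0.52 (adjusted p = 0.000942). BC049730 had 0 counts in Daxx-/- and 5.04 and 6.95 CPM in H3.3 KO, at least 36.2-fold (adjusted p = 0.00148). BC080695 was at 0.167 and 0.274 CPM against 9.28 and 20.3 CPM (adjusted p = 0.0113). The first 3 stayed DE in every alternative fit that tested them, and BC080695 did not. Ubd and BC049730 had a mean under 5 CPM over the 10 libraries and were not tested in the fit with that filter.

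The 10 named genes lowest in H3.3 KO relative to Daxx-/- held 6 X-linked multicopy genes, Rhox4a, Rhox4e, Magea2, Magea5, Magea8 and Xlr5a. In the Rhox cluster, a group of homeobox genes active in germ cells and placenta, 9 of 15 tested genes were DE and lower in H3.3 KO and none higher. In the Xlr family, X-linked lymphocyte-regulated genes related to a synaptonemal complex protein, 9 of 10 were lower and none higher. Of 7 tested Magea genes, a cancer-testis antigen family added after its values were seen, 6 were lower and none higher. Of all tested genes, 5.86% were lower. Rhox4a, Rhox4b and Rhox4e reached 1 CPM in the Daxx-/- libraries alone. They passed the filter through those libraries and could be called only as lower. The 6 DE Magea genes were at most at 0.464 CPM in the H3.3 libraries, so they passed through the Daxx libraries and could also be called only as lower. How many other Rhox and Xlr members did so was not counted. The family counts are therefore a description and give no independent support for a difference. The median log2 fold changes were -3.75 for Rhox, -3.05 for Xlr and -6.46 for Magea genes, beside -0.01 over all genes.

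The promoter sequences of a pair of genes from each family are shown because these families were the largest group of X-linked genes among those lowest in H3.3 KO. Each pair was among the more alike of the few members aligned in its family. The 120 bases that end just before the annotated start (RefSeq, GRCm38.p6) are written 5′ to 3′ on the gene's strand, with each CpG, the dinucleotide that carries DNA methylation, in capitals.
Xlr5a: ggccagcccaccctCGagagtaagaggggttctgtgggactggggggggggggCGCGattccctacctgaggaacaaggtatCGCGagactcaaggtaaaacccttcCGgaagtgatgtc
Xlr5b: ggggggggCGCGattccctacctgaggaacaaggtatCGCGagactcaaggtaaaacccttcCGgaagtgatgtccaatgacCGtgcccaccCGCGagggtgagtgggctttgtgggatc
Rhox4a: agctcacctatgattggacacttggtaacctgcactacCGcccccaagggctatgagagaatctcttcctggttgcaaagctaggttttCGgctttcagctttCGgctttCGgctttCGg
Rhox4b: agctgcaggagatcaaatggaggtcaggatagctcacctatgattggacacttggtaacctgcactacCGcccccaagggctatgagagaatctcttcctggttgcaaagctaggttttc
Magea2: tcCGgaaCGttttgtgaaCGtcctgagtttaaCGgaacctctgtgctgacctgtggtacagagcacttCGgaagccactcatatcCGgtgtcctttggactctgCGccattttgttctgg
Magea8: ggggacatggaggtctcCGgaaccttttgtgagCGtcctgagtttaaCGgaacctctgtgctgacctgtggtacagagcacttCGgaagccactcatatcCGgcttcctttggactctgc
In these windows Xlr5a lay at chrX:73117703-73117822 on the minus strand, Xlr5b lay at chrX:73148721-73148840 on the plus strand, Rhox4a lay at chrX:37265255-37265374 on the plus strand, Rhox4b lay at chrX:37432374-37432493 on the plus strand, Magea2 lay at chrX:155033293-155033412 on the minus strand and Magea8 lay at chrX:154995851-154995970 on the minus strand. The 250 bases before the start held 12 CpGs in Xlr5a, 14 in Xlr5b, 6 in Rhox4a, 4 in Rhox4b, 8 in Magea2 and 7 in Magea8. Aligned over those 250 bases, the pairs were 69.5% identical for Xlr5a and Xlr5b, whose starts are annotated at different points of a shared sequence, 77.5% for Rhox4a and Rhox4b and 81.5% for Magea2 and Magea8. Of the other pairs aligned, some were less alike, with 51.9% for Magea2 and Magea5. Others were more alike than the pair shown, with 78.4% for Rhox4b and Rhox4e and 77.1% for Xlr4a and Xlr4c. Of 9407 tested genes with a promoter in the table, the median was 16 CpGs. It was 10 over 405 X-linked genes and 6 over the 64 of them that were DE and lower in H3.3 KO.

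These families were higher in the Daxx-/- libraries than in the other 8. Xlr5b was at 35.0 and 54.3 CPM in Daxx-/- and at 0 and 3.10 CPM in H3.3 KO, a log2 fold change of -4.86 ± 1.14 (adjusted p = 0.0204). Xlr5a was at 28.1 and 39.5 CPM against 0.283 and 1.80 CPM (log2 fold change -5.03 ± 1.05, adjusted p = 0.0137). Both H3.3 KO libraries lay below both Daxx-/- libraries, although the H3.3 KO replicates differed from each other by several-fold.

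Rhox4a was at 7.27 and 10.5 CPM in Daxx-/- and at 0 in H3.3 KO, at least 50.0-fold lower (adjusted p = 0.00763). Rhox4e was at 6.50 and 9.19 CPM against 0.226 and 0.124 CPM (log2 fold change -5.42 ± 0.69, adjusted p = 0.00321). Magea8 was at 23.5 and 12.5 CPM against 0 and 0.186 CPM, at least 101.2-fold lower (adjusted p = 0.00214). Magea5 went from 18.9 and 8.59 CPM to 0.0566 and 0.248 CPM (log2 fold change -6.46 ± 0.94, adjusted p = 0.0036), and Magea2 from 11.4 and 4.10 CPM to 0 and 0.310 CPM (-5.63 ± 1.24, adjusted p = 0.0163). Pramel3, another X-linked gene of a testis-expressed family, named after its values were seen, was at 20.7 and 18.2 CPM against 0.566 and 0.744 CPM (adjusted p = 0.000894).

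With the DAXX transgene the summed levels of these families were below those in both Daxx-/- libraries. Summed over the 10 Xlr genes, the level was 312 and 405 CPM in Daxx-/-, 37.3 and 72.0 CPM in Daxx-/-;WT, and 25.6 and 88.1 CPM in H3.3 KO. Over 29 Rhox genes it was 92.3 and 123 CPM in Daxx-/-, 10.7 and 15.8 CPM in Daxx-/-;WT, and 12.5 and 36.1 CPM in H3.3 KO. For the 8 Magea genes it was 72.5 and 35.9 CPM in Daxx-/-, 7.61 and 12.5 CPM in Daxx-/-;WT, and 0.622 and 3.91 CPM in H3.3 KO. The Xlr and Rhox ranges of Daxx-/-;WT and H3.3 KO overlapped, and the Magea ranges did not. The counts rested on the test, the filter and single libraries. With DESeq2 6 Rhox, 9 Xlr and 7 Magea genes were DE, and Rhox4a was not (adjusted p = 0.0825). With limma the counts were 10, 10 and 7. Among genes with a mean of at least 5 CPM, 1 Rhox, 5 Xlr and 0 Magea genes were DE. Without either of the Daxx-/- libraries 1 Rhox gene was DE, and without H3.3 KO replicate 1 there was 1 DE Xlr gene. There were 3 DE Magea genes without either Daxx-/- library.

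Most DE members lay side by side. They are multicopy genes whose copies can share reads, so their calls are not independent of each other. Of 16 runs of at least 4 neighbouring tested genes that were all DE in 1 direction, 5 were on the X chromosome and all 5 were lower in H3.3 KO: 8 genes of the Rhox2 and Rhox4 type, 6 genes from Xlr5a to Xlr4b, 4 genes from Xlr4c to Zfp275, 4 genes around Pramel3, and 5 Magea genes. Beyond the 3 families, 467 X-linked genes were tested, of which 51 were DE and lower in H3.3 KO and 12 higher, with a median log2 fold change of -0.27. Over all tested genes the shares were 5.86% lower and 5.8% higher.

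The other named genes lower in H3.3 KO were autosomal. Tagap, which encodes a T cell GTPase-activating protein, was at 7.27 and 6.73 CPM in Daxx-/- and had 0 counts in H3.3 KO, at least 39.4-fold lower (adjusted p = 0.00272). In contrast to the X-linked families it was as high in Daxx-/-;WT, at 7.26 and 10.1 CPM. Sstr5, a somatostatin receptor gene, was at 12.2 and 7.94 CPM against 0.226 and 0.186 CPM (log2 fold change -5.55 ± 0.64, adjusted p = 0.00143). Gadd45g, a stress-response gene, was at 2.55 and 43.6 CPM in Daxx-/- and at 1.02 and 0.310 CPM in H3.3 KO (adjusted p = 0.0212), so most of its difference came from Daxx-/- replicate 2. A further set of lower genes, looked at after their values were seen, was the Schlafen family, with 3 of 6 tested genes DE and lower, beside 5.86% of all tested genes. Slfn8 was at 22.4 and 19.5 CPM in Daxx-/- and at 0.622 and 0.744 CPM in H3.3 KO (log2 fold change -4.93 ± 0.45, adjusted p = 0.000707). Of 4 metallothionein genes, which bind metals and lie side by side on chromosome 8, 3 were lower (again beside 5.86%), with Mt1 at 415 and 629 CPM against 139 and 119 CPM (log2 fold change -2.01 ± 0.26, adjusted p = 0.00197).

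Whole chromosomes differed between the KO lines, in steps that the gene-by-gene calls followed. Chromosome and gene order were taken from RefSeq by symbol for 13108 of the tested genes, and chromosome medians are given as log2 fold changes relative to the median of all tested genes. Chromosome 14 stood highest of the autosomes, with a median of 0.61 (437 genes). It held 96 of the 765 genes higher in H3.3 KO (12.5%), and 24.5% of its genes were DE, against 11.7% of all tested genes. Chromosomes 12 (0.36), 11 (0.29) and 13 (0.26) also lay above the other genes. Chromosome 8 lay lowest of the autosomes, with a median of -0.35 (692 genes), 1 gene higher and 76 lower in H3.3 KO. Chromosome 15 (-0.33, 13 higher and 53 lower), the X chromosome (-0.305, 12 higher and 75 lower) and chromosome 1 (-0.275, 19 higher and 79 lower) followed it. The replicate spread was taken from chromosome medians of log CPM per library, against the mean of all libraries, and not from these fold changes. Its pooled SD for a difference between single libraries of the KO lines was 0.044. No test was run on the chromosome medians, and DNA copy number was not measured.

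**Figure D2:**
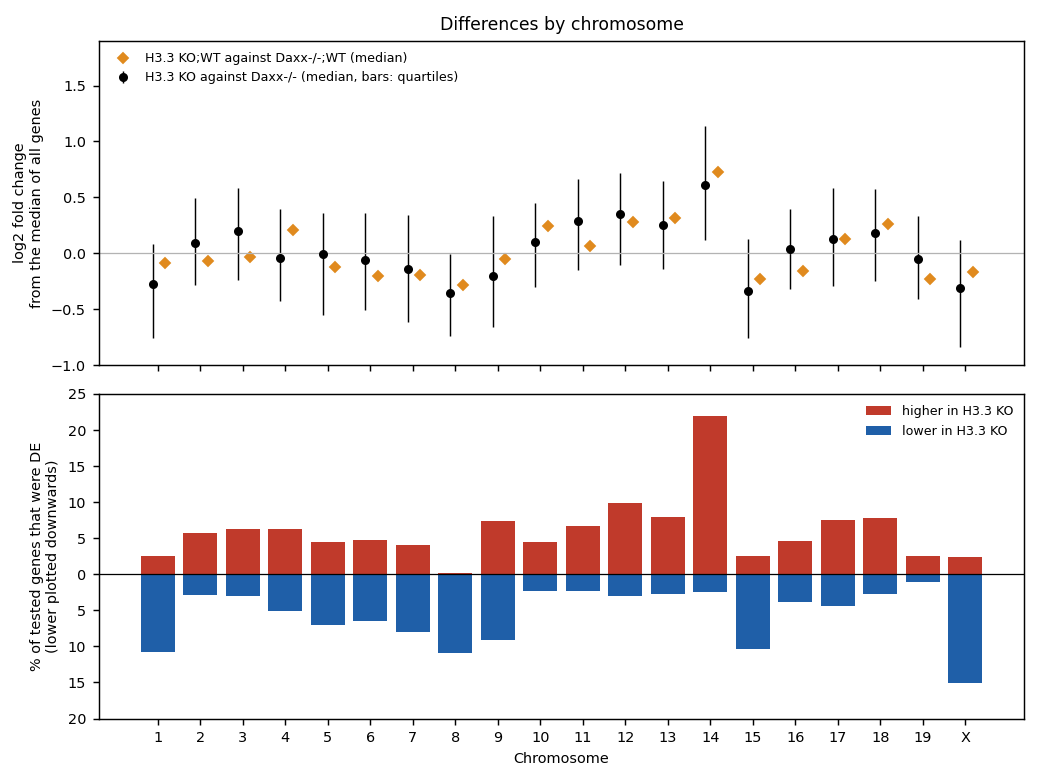
Differences between the KO lines by chromosome (Y left out). Upper panel: median log2 fold change of the tested genes relative to all genes, with quartile bars, for H3.3 KO against Daxx-/- (black) and the median for the rescued lines (orange). Lower panel: percent of tested genes that were DE, higher in H3.3 KO upwards and lower downwards. Chromosome 14 stands out upwards in both panels, with a median of 0.61 between the KO lines and 0.73 between the rescued lines.

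The rescued lines share no library with the KO comparison and gave the same direction for most of these chromosomes. The medians between H3.3 KO;WT and Daxx-/-;WT were 0.73 for chromosome 14, 0.285 for chromosome 12, 0.317 for chromosome 13, -0.28 for chromosome 8 and -0.23 for chromosome 15. Against the mean of all 10 libraries, the chromosome 14 medians were -0.31 to -0.40 in the 4 Daxx libraries and 0.22 to 0.27 in the 6 H3.3 libraries, so the lines did not overlap. Chromosome 11 was otherwise. Its median was 0.28 and 0.24 in the H3.3 KO libraries, -0.003 and -0.005 in the Daxx-/- libraries, -0.084 and -0.094 in Daxx-/-;WT, and between -0.146 and 0.003 in the 4 transgenic H3.3 libraries, and the median between the rescued lines was 0.06. Chromosome 1 was high only in Daxx-/-, at 0.19 in both libraries, with the other 8 libraries between -0.11 and 0.06.

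Chromosomes 9 and 14 were looked at for a change in level part of the way along. On chromosome 14, with 1 break placed to fit the KO comparison, the first 68 genes (of those with a mean of at least 5 CPM, from Gm2897 to Erc2) had a median log2 fold change of -0.22 and the following 286 (from Selk to Tmtc4) one of 0.74. On chromosome 9 the order was turned, with 0.72 over the first 116 genes (Alkbh8 to Tbrg1) and -0.34 over the following 460 (Vwa5a to Fyco1). In the first segment of chromosome 9, 36 genes were DE and higher and 1 lower, and in the second 8 were higher and 51 lower. At the same breaks the rescued lines had medians of -0.12 and 0.81 on chromosome 14, and of 0.84 and -0.22 on chromosome 9. Both chromosomes were picked from the running medians. These also varied along other chromosomes, where no break was fitted. Between the KO lines they ran from -0.843 to 0.294 on chromosome 5 and from -0.411 to 0.533 on chromosome 4. The range was -0.51 to 0.932 on chromosome 9 and -0.326 to 0.943 on chromosome 14. The libraries of the lines did not overlap in 3 of the 4 segments over all 10 libraries, the exception being the first segment of chromosome 14, where the H3.3 libraries (-0.08 to 0.01) and the Daxx libraries (0.01 to 0.28) met.

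**Figure D3:**
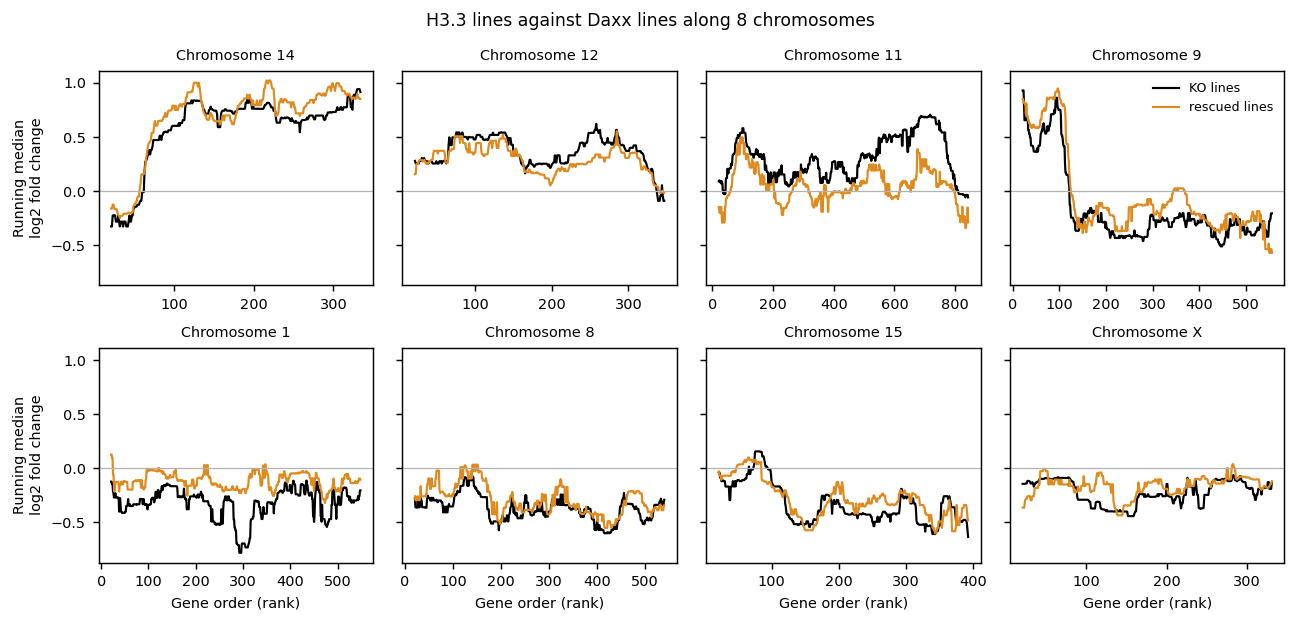
Running median of the log2 fold change over 41 genes in chromosome order, for 8 chromosomes, between the KO lines (black) and between the rescued lines (orange); the horizontal axis is the rank of the gene, counted over genes with a mean of at least 5 CPM. Both lines step upwards after the first part of chromosome 14 and downwards after the first part of chromosome 9, and the black line lies above the orange one over most of chromosome 11.

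Many DE genes named below lie on such chromosomes. When autosomal and X-linked genes were measured from the median of their chromosome, a setting added after the data were seen, 1307 of them were DE in place of 1508.

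Of 22 tested naive and core pluripotency genes 3 were DE, all higher in H3.3 KO (13.6% called, against 11.7% of all tested genes), with a median log2 fold change of 0.37. Klf5, a Krüppel-like factor gene on chromosome 14, was at 64.3 and 65.4 CPM in Daxx-/- and at 125 and 148 CPM in H3.3 KO, a log2 fold change of 1.07 ± 0.14 (adjusted p = 0.00198). Tbx3, a T-box factor gene on chromosome 5, was at 209 and 166 CPM against 334 and 504 CPM (1.16 ± 0.20, adjusted p = 0.00521). Dppa2, a regulator of early embryonic genes on chromosome 16, was at 91.2 and 24.8 CPM against 190 and 237 CPM (1.88 ± 0.59, adjusted p = 0.0486). Klf4 (0.98, adjusted p = 0.00249), Sox2 (0.76, adjusted p = 0.0293), Tdgf1 (0.73, adjusted p = 0.0438) and Esrrb (0.45, adjusted p = 0.0353) passed the p threshold under 2-fold. The core factors Pou5f1 (-0.10), Nanog (0.33) and Zfp42 (0.21) did not pass it. Without H3.3 KO replicate 2 none of the 22 was DE, and without Daxx-/- replicate 1 there were 7 higher and 1 lower.

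Of 14 formative and primed epiblast genes, 2 were higher and 1 lower in H3.3 KO (21.4% called, against 11.7% of all tested genes). Otx2, a homeobox gene of the primed epiblast on chromosome 14, was at 11.5 and 7.77 CPM in Daxx-/- and at 1.30 and 1.12 CPM in H3.3 KO, a log2 fold change of -2.99 ± 0.46 (adjusted p = 0.00357), against the direction of its chromosome. Foxd3 (1.69, adjusted p = 0.0252) and Zic2 on chromosome 14 (1.63, adjusted p = 0.0364) were higher. Among 14 Wnt target genes, a pathway that GSK3 inhibition activates, Cdx1, a caudal-type homeobox gene, was at 3.78 and 1.64 CPM against 22.5 and 28.5 CPM (3.23 ± 0.40, adjusted p = 0.00169), and Ccnd1, the cyclin D1 gene, was at 158 and 102 CPM against 25.8 and 21.5 CPM (-2.46 ± 0.40, adjusted p = 0.00419). The other 12 did not pass, so 14.3% of the Wnt list was called, near the share of all tested genes. Among 17 ERK feedback and target genes, Spry2, an inhibitor of receptor tyrosine kinase signalling on chromosome 14, was the only DE gene (5.88% called). It was at 19.6 and 17.5 CPM against 46.8 and 58.2 CPM (1.502 ± 0.18, adjusted p = 0.00145).

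Of 11 cell cycle inhibitor genes 3 were lower and 2 higher (45.5% called, against 11.7% of all tested genes). Cdkn2a, the Ink4a/Arf gene, was at 46.6 and 57.8 CPM in Daxx-/- and at 4.70 and 6.39 CPM in H3.3 KO, a log2 fold change of -3.24 ± 0.22 (adjusted p = 0.000245). Its neighbour Cdkn2b was at 7.38 and 12.5 CPM against 1.53 and 0.930 CPM (-3.01 ± 0.41, adjusted p = 0.00224). Cdkn1a, the p21 gene and a p53 target, was at 249 and 345 CPM against 77.4 and 75.3 CPM (-1.96 ± 0.26, adjusted p = 0.00197). The p27 gene Cdkn1b was higher, at 17.0 and 25.5 CPM against 48.8 and 52.97 CPM (1.26 ± 0.25, adjusted p = 0.00987), as was Cdkn2d on chromosome 9 (1.04, adjusted p = 0.0105). Cdkn2a and Cdkn1a were lower in H3.3 KO under every alternative fit that was run, and Cdkn2b under those that tested it. Among genes with a mean of at least 5 CPM, 2 of the list were lower in place of 3.

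Of 23 p53 target genes 5 were lower and 1 higher (26.1% called, against 11.7% of all tested genes), with a median log2 fold change of -0.47. Besides Cdkn1a these were Btg2, an antiproliferative gene (105 and 210 CPM against 39.1 and 47.0 CPM, -1.87 ± 0.30, adjusted p = 0.00379), Bbc3, the PUMA gene (30.8 and 53.9 CPM against 12.6 and 15.6 CPM, -1.58 ± 0.32, adjusted p = 0.0102), Phlda3 (121 and 117 CPM against 37.2 and 56.0 CPM, -1.35 ± 0.21, adjusted p = 0.0037) and Aen, a nuclease gene (-1.10, adjusted p = 0.00217). Btg2 and Phlda3 lie on chromosome 1, whose genes were lower in H3.3 KO as a whole. Ei24, on chromosome 9, was higher (1.07, adjusted p = 0.00521). Leaving out 1 library of the KO lines at a time gave 4 to 9 genes of the list lower.

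**Figure D4:**
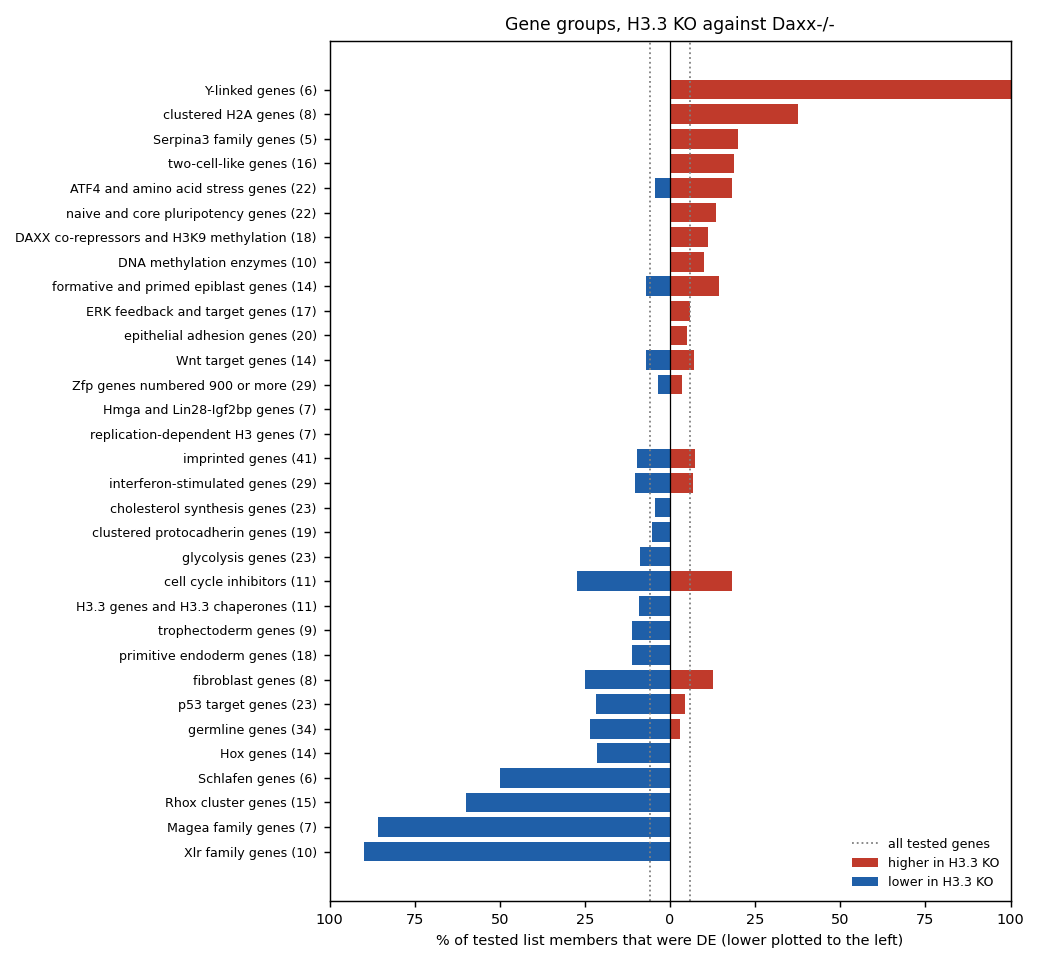
Percent of the tested genes of each list that were DE between the KO lines, higher in H3.3 KO to the right and lower to the left, with the number tested in parentheses and lists of fewer than 5 tested genes left out. Dotted lines mark the percent over all tested genes, 5.8 higher and 5.86 lower. The Y-linked genes (6 of 6 higher) and the Xlr, Magea and Rhox families (9 of 10, 6 of 7 and 9 of 15 lower) reach farthest.

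Of 34 tested germline genes 8 were lower in H3.3 KO and 1 was higher, beside 5.86% and 5.8% of all genes. Hormad1, a meiotic chromosome axis gene on chromosome 3, was at 50.5 and 59.7 CPM in Daxx-/- and at 5.09 and 9.99 CPM in H3.3 KO, a log2 fold change of -2.87 ± 0.38 (adjusted p = 0.00197). Asz1, a piRNA pathway gene, was at 6.38 and 7.61 CPM against 1.13 and 2.05 CPM (-2.14 ± 0.59, adjusted p = 0.0351). Taf9b, an X-linked TFIID subunit gene on this list, was at 6.72 and 19.9 CPM against 2.38 and 3.04 CPM (-2.30 ± 0.59, adjusted p = 0.0249). Smc1b, a meiotic cohesin gene on chromosome 15 (-1.76), Stk31 (-1.42), Slc25a31 (-1.40), Dnd1 (-1.39) and Syce2 on chromosome 8 (-1.24) completed the set. Sycp3, a synaptonemal complex gene, went the other way, at 3.11 and 17.4 CPM against 55.2 and 42.8 CPM (2.25 ± 0.70, adjusted p = 0.0467). The piRNA and germ cell genes Ddx4, Dazl and Mael did not pass the test. Without Daxx-/- replicate 2 there were 3 lower and 3 higher, and without either H3.3 KO library 3 lower and 0 higher.

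Genes of the two-cell-like state, a rare mESC state that resembles the early embryo, had positive log2 fold changes in 16 of 16 tested genes. Their median was 2.49, beside -0.01 over all genes, but 3 passed the test (18.8% called, against 11.7% of all tested genes). These were Tdpoz3 (0 counts in Daxx-/- against 0.509 and 1.24 CPM, at least 5.29-fold, adjusted p = 0.0296), Tdpoz4 (0.167 and 0.109 CPM against 1.13 and 2.73 CPM, at least 11.7-fold, adjusted p = 0.0258) and B020004J07Rik (1.94 and 0.876 CPM against 9.16 and 9.86 CPM, 2.75 ± 0.60, adjusted p = 0.0133). Zscan4c, the gene most used to mark this state, was at 12.4 and 2.79 CPM against 29.9 and 36.2 CPM and did not pass (adjusted p = 0.162). The summed level of the 20 genes in the table was 84.2 and 29.3 CPM in Daxx-/- and 216 and 352 CPM in H3.3 KO. In Daxx-/-;WT it was 119 and 17.4 CPM, so the spread between replicates was large. The H3.3 lines were not alike either, with 223 and 353 CPM in H3.3 KO;WT but 5.30 and 69.9 CPM in H3.3 KO;mutant. Tdpoz3 and Tdpoz4 reached 1 CPM in H3.3 libraries alone. They passed the filter through those libraries and could be called only as higher, and how many other members did so was not counted. The list counts are therefore a description. These genes lie in repeated clusters that share reads. Without Daxx-/- replicate 2, or without H3.3 KO replicate 2, none of the list was DE.

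Of 41 imprinted genes 3 were higher and 4 lower (17.1% called, against 11.7% of all tested genes). Mest was at 216 and 153 CPM in Daxx-/- and at 54.9 and 41.2 CPM in H3.3 KO (-1.94 ± 0.47, adjusted p = 0.0201). Ascl2, a trophoblast factor gene and the 1 DE gene of 9 on the trophectoderm list, was at 2.61 and 9.47 CPM against 1.07 and 0.496 CPM (-2.92 ± 0.81, adjusted p = 0.0309), and Nap1l5 (-2.19, adjusted p = 0.0295) and Grb10 on chromosome 11 (-1.29, adjusted p = 0.0137) were lower too. Phlda2, a placental growth regulator gene, was at 3.61 and 9.14 CPM against 22.6 and 14.8 CPM (1.55 ± 0.43, adjusted p = 0.0321), and Peg3 (1.09) and Ddc on chromosome 11 (1.00) were higher. The count was 4 higher and 6 lower without Daxx-/- replicate 1, 1 and 0 without H3.3 KO replicate 1, 1 and 1 without H3.3 KO replicate 2, and 0 and 1 on the 4 KO libraries alone.

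Of 29 interferon-stimulated genes 2 were higher and 3 lower (17.2% called, against 11.7% of all tested genes). H2-K1, a class I histocompatibility gene, was at 8.83 and 20.5 CPM in Daxx-/- and at 67.8 and 70.8 CPM in H3.3 KO (2.24 ± 0.39, adjusted p = 0.00531). Ifit2 was at 1.83 and 1.92 CPM against 0.283 and 0 CPM (-3.62 ± 0.85, adjusted p = 0.0176), Oas1g fell from 12.9 and 11.5 CPM to 4.53 and 4.96 CPM (-1.37, adjusted p = 0.0132) and Ifitm1 from 82.3 and 90.9 CPM to 46.8 and 27.0 CPM (-1.23, adjusted p = 0.0102). Irf9, on chromosome 14, was higher (1.16, adjusted p = 0.0107). The count was 3 higher and 9 lower without Daxx-/- replicate 1, and 1 higher and 0 lower both without H3.3 KO replicate 2 and on the 4 KO libraries alone.

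Of 22 ATF4 and amino acid stress genes 4 were higher and 1 lower (22.7% called, against 11.7% of all tested genes): Chac1, a glutathione-degrading enzyme gene (1.59 ± 0.43, adjusted p = 0.0296), Cebpb (1.18, adjusted p = 0.0431), Trib3 (1.13, adjusted p = 0.0081) and Atf3 on chromosome 1 (1.08, adjusted p = 0.0342) were higher, and Slc7a11, the cystine transporter gene, was lower (-1.44 ± 0.42, adjusted p = 0.0386). In all 3 were DE without Daxx-/- replicate 2, 1 without H3.3 KO replicate 1 and 2 without H3.3 KO replicate 2. Of 23 glycolysis genes 2 were lower, Slc2a1 (-1.13, adjusted p = 0.0409) and Gpi1 (-1.08, adjusted p = 0.0087), with a list median of -0.51 and 8.7% called, and of 23 cholesterol genes Stard4 alone was DE (-1.63, adjusted p = 0.00297). The glycolysis count was 4 without Daxx-/- replicate 1, 1 without Daxx-/- replicate 2, 5 without H3.3 KO replicate 1 and 0 without H3.3 KO replicate 2. In the developmental lists, 3 of 14 Hox genes were lower, all of the Hoxc cluster on chromosome 15 (Hoxc10, at least 6.51-fold, Hoxc4 -1.98 and Hoxc13 -1.39), and there were 1 without Daxx-/- replicate 2, 0 without H3.3 KO replicate 1 and 1 without H3.3 KO replicate 2. Of 18 primitive endoderm genes the endocytic receptor gene Lrp2 (-1.90, adjusted p = 0.00219) and the collagen gene Col4a1 on chromosome 8 (-1.62, adjusted p = 0.00606) were lower, and there were 6 without Daxx-/- replicate 1. Of 8 fibroblast genes Thy1 on chromosome 9 (23.5 and 35.6 CPM against 7.52 and 6.26 CPM, -2.10 ± 0.40, adjusted p = 0.00824) and Col5a1 (-2.06, adjusted p = 0.00741) were lower and Fbn1 was higher (1.25, adjusted p = 0.014). Epithelial adhesion genes had 1 DE member of 20, the desmosomal gene Dsp on chromosome 13 (1.53, adjusted p = 0.0246), and clustered protocadherin genes 1 of 19, Pcdhgb2 (-2.90, adjusted p = 0.00512). Beside 11.7% of all tested genes, the called shares were 37.5% for fibroblast, 21.4% for Hox and 11.1% for primitive endoderm genes. They were 5.26% for protocadherin, 5% for adhesion and 4.35% for cholesterol genes.

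Lists of chromatin regulators were called at about the share of all tested genes (11.7%), with 9.09% for H3.3 and its chaperones, 11.1% for DAXX co-repressors and H3K9 methylation and 10% for DNA methylation enzymes. Of 11 genes of H3.3 and its chaperones only H3f3a was DE. Of 18 genes of DAXX co-repressors and H3K9 methylation 2 were higher in H3.3 KO, the methyltransferase gene Suv39h2 (29.0 and 20.6 CPM against 55.5 and 50.9 CPM, 1.10 ± 0.19, adjusted p = 0.00482) and Zfp809 on chromosome 9, whose product binds retroviral DNA (20.7 and 6.90 CPM against 36.4 and 40.3 CPM, 1.48 ± 0.40, adjusted p = 0.0296). Of 10 genes of DNA methylation enzymes Tet2 was higher (1.08 ± 0.29, adjusted p = 0.0262). The corepressor genes Trim28 (-0.56, adjusted p = 0.139) and Setdb1 (0.27, adjusted p = 0.332) did not pass the test. Without Daxx-/- replicate 2 no gene of the co-repressor or DNA methylation lists was DE. No gene was DE among 7 tested replication-dependent H3 genes, 7 Hmga and Lin28-Igf2bp genes, or the 1 tested gene with a known strain allele, Nnt, and of 29 Zfp genes numbered 900 or more 1 was higher and 1 lower, with 7 higher without Daxx-/- replicate 1. Of 5 tested Serpina3 genes Serpina3m on chromosome 12 was higher (1.10, adjusted p = 0.0321).

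The rescued lines were compared in the same way to see which differences were present in cells that carried a transgene. Between H3.3 KO;WT and Daxx-/-;WT 1117 genes were DE (8.46% of those tested), 672 higher (5.09%) and 445 lower (3.37%) in the H3.3 line. Of the 1538 genes DE between the KO lines, 543 were DE in the same direction here (35.3% of the KO list, 48.6% of the rescued list), 327 higher and 216 lower, and 3 were DE in the opposite direction. Without regard to the call, 92.3% of the 1538 had the same sign, against 71.2% of all tested genes. Across genes the log2 fold changes had a Pearson correlation of 0.65; genes are not independent replicates. For 1020 of the 1538 genes (66.3%) all 6 H3.3 libraries lay on 1 side of all 4 Daxx libraries, which held for 22.6% of tested genes; the 4 KO libraries are part of both sides.

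**Figure D5:**
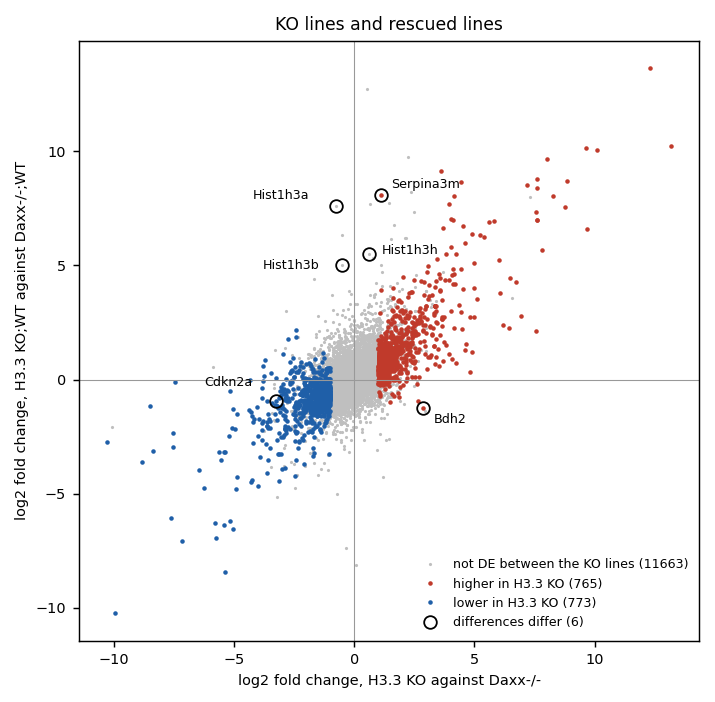
Log2 fold change of each tested gene between the KO lines (horizontal) and between the rescued lines (vertical). Genes DE between the KO lines are red where higher (765) and blue where lower (773) in H3.3 KO, and circles mark the 6 genes whose differences in the KO and rescued lines differed from each other. Most coloured points lie in the lower left and upper right quadrants.

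The Y-linked genes and the H2A genes were DE in both comparisons. Genes that were DE between the KO lines and not between the rescued lines included most Xlr and Rhox genes, Cdkn1a, Btg2, Bbc3 and Phlda3. In Daxx-/-;WT, Cdkn1a was at 102 and 151 CPM, between its levels in Daxx-/- (249 and 345 CPM) and in H3.3 KO;WT (74.1 and 90.0 CPM). The test of the difference itself did not pass for Cdkn1a (adjusted p = 0.209), Xlr5b (adjusted p = 0.39) or Rhox4a (adjusted p = 0.452), so these genes are not shown to differ between the comparisons. It passed for 6 of 13201 genes (0.0455%), 1 with a higher and 5 with a lower value between the KO lines, while 1817 genes had an unadjusted p under 0.05. This count was 1 to 190 when 1 library was left out.

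Those 6 genes were Bdh2, Cdkn2a, Serpina3m and the H3 genes Hist1h3a, Hist1h3b and Hist1h3h. Bdh2, a dehydrogenase gene, was at 0.666 and 0.930 CPM in Daxx-/- and at 5.60 and 6.14 CPM in H3.3 KO, but at 8.90 and 8.20 CPM in Daxx-/-;WT and 4.32 and 2.84 CPM in H3.3 KO;WT. Cdkn2a differed by -3.24 on the log2 scale between the KO lines and by -0.92 between the rescued lines, at 31.4 and 33.4 CPM in Daxx-/-;WT and 17.6 and 16.6 CPM in H3.3 KO;WT. Serpina3m, a serine protease inhibitor gene, was at 93.3 and 54.0 CPM in Daxx-/- and at 169 and 148 CPM in H3.3 KO, and it was at 0.0995 and 0 CPM in Daxx-/-;WT and 14.2 and 18.3 CPM in H3.3 KO;WT. It was thus expressed in both KO lines and lower with either transgene. Hist1h3a was at most 2.11 CPM in the 4 KO libraries and at 84.1 and 90.0 CPM in H3.3 KO;WT. It was as high in the H3.3 KO;mutant libraries, at 77.5 and 71.0 CPM, so its level went with an H3 transgene; H3 genes have near-identical coding sequences, and where the reads came from was not tested.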

How the data were processed

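PolyA+ RNA from 5 mESC lines, 2 libraries each, was sequenced. The authors aligned the reads with Bowtie (mm9 in the submitters' processing notes) and deposited RSEM expected counts per gene; tool versions are not given in the sources used here. RSEM divides reads that fit several genes, so values of near-identical genes are estimates, and the kit does not mark strand. Expected counts were rounded, scaled by median-of-ratios factors and filtered (at least 1 CPM in at least 2 libraries). One model over all 10 libraries (edgeR 4.0.16 in R 4.3.3, quasi-likelihood F test) gave each contrast. Limma and DESeq2 were alternatives, and the fit was tested on simulated data. The authors used EBSeq, not run here. The study calls the duplicates biological replicates. A count of 3 per library served as the floor for genes at or near 0. Named genes were H3f3a, H3f3b, Daxx, Atrx and Hira, the 10 largest differences each way (non-overlapping libraries, mean of at least 5 CPM in the higher line, a gene symbol other than a model or pseudogene), up to 4 DE genes per list and the 5 largest each way in the difference of the comparisons; other DE members of a list complete its count, and the rest are markers, non-DE reference genes or said to be chosen after their values were seen. Members and lists were chosen with earlier results of these data known. Of the X inactivation RNAs listed, none was analysed here.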

Additional observations from a re-analysis of the deposited data

Results flagged for a closer look

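The contrast of H3.3 lines with Daxx lines differed between the KO and the rescued lines at 6 genes, by the test of that difference (edgeR quasi-likelihood test). On the log2 scale the difference, KO lines minus rescued lines, was 4.12 for Bdh2 (adjusted p = 0.0376), -2.31 for Cdkn2a (adjusted p = 0.0457), -8.36 for Hist1h3a (adjusted p = 0.000131), -5.50 for Hist1h3b (adjusted p = 0.0251), -4.89 for Hist1h3h (adjusted p = 0.00625) and -6.98 for Serpina3m (adjusted p = 0.0251). Hist1h3a kept its call in every alternative fit that was run, and each of the other 5 lost it in some. Cdkn2a did so with library size alone (adjusted p = 0.0887), with limma (0.0535) and on the libraries of the comparison alone (0.0615), and it, Bdh2, Serpina3m, Hist1h3b and Hist1h3h did so when some single libraries were left out. With 2 libraries per line no library could be tested as an outlier.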

How the results depend on the processing

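The count of 1538 DE genes between the KO lines stayed within 1.5 times under TMM factors (1528), library size alone (1467), no filter (1614), a mean of at least 5 CPM (1102), DESeq2 (1720) and limma (1452). With library size alone the split was 859 higher and 608 lower. It was 819 on the 4 libraries alone and 701 to 2106 leaving out 1 library, with 701 without H3.3 KO replicate 2, 926 without H3.3 KO replicate 1, 1272 without Daxx-/- replicate 2 and 2106 without Daxx-/- replicate 1. The rescued lines gave 1697 on their own libraries and 347 to 783 leaving out 1. Genes DE in the same direction in both comparisons (543) were 224 to 574 leaving out 1 library, 653 with DESeq2 and 735 with the replicate block, and genes called in the lists were 54 on the 4 libraries alone and 45 to 118 leaving out 1, against 90. The difference of the comparisons gave 261 genes with DESeq2 and 1 to 190 leaving out 1 library, 190 being without Daxx-/- replicate 1. Chromosome medians leaving out 1 library ran from -0.34 to -0.292 for chromosome 1, -0.069 to 0.004 for 5, -0.135 to -0.039 for 6, 0.184 to 0.267 for 13, -0.014 to 0.1 for 16, 0.114 to 0.204 for 18 and 7.988 to 8.978 for Y. The cause was not tested.

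Replicate numbers were not taken as pairs, since not every pair of lines deviated together: deviations of same-numbered libraries correlated at -0.044 to 0.575, over 0.1 in 7 of 10 pairs of lines, but at -0.044 for the KO lines. With the replicate block 1888 genes were DE between the KO lines and 128 in the difference of the comparisons.

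Of 78 named DE genes, 31 were DE under every alternative run. Of 1076 recomputed gene values 2 changed sign, neither past the threshold: Hira at -0.234 without Daxx-/- replicate 2 (adjusted p = 0.403; range -0.234 to 0.885 leaving out 1 library) and Hist1h3b at 0.074 without Daxx-/- replicate 1 (adjusted p = 0.921; range -0.897 to 0.074). The effect of depth was not tested.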

Other observations

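Outside the X and Y chromosomes, 10 runs of at least 4 neighbouring tested genes were DE in 1 direction between the KO lines. The longest was on chromosome 2, where 7 neighbouring Gm genes, from Gm13698 to Gm13691, were higher in H3.3 KO, and all 7 were also higher in H3.3 KO;WT than in Daxx-/-;WT. A run of 6 genes on chromosome 1, from Ptpn4 to Steap3, was lower in H3.3 KO, and 0 of them were DE between the rescued lines. On chromosome 9 the run Dync2h1, Dcun1d5, Mmp12 and Tmem123 was higher in H3.3 KO and DE in both comparisons. Chromosome 14 held 3 runs of 4 genes, all higher in H3.3 KO. The genes of the runs were found by their values, and no test was run on them. Whether neighbouring genes of a run shared reads was not tested. Grb10, an imprinted growth regulator gene, was 1 of the 3 genes DE in opposite directions, with log2 fold changes of -1.29 between the KO lines and 1.18 between the rescued lines; the test of the difference did not pass (adjusted p = 0.12).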
